A study of Mus musculus with 31 samples.

Results

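Disease-associated microglia are a transcriptional state in which microglia, the resident macrophages of the brain, turn on phagocytic, lysosomal and lipid-handling genes near amyloid, tau pathology or dying neurons. Entry into the full state is known to need TREM2, a lipid-sensing surface receptor that signals through the adaptor TYROBP, while homeostatic genes such as P2ry12 and Tmem119 recede. The 10 genes described here are widely used names of that state and were looked up by symbol: Itgax, Cst7, Clec7a, Axl, Trem2, Tyrobp, Lpl, Apoe, Spp1 and Gpnmb. Each was found in both count tables of the study, among 48795 genes in the hippocampal table and 54532 in the microglial table, and all 10 passed the filter on low counts in both.

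The study measured RNA in mouse brain and in culture to ask how the DNA sensor cGAS (gene Cgas) acts in tauopathy. Bulk hippocampi came from 6 P301S mice, which carry human tau with the P301S mutation driven by the mouse prion promoter (line PS19), and from 7 non-transgenic (Ntg) mice, all 8 to 9 months old per the labels. The P301S group held 3 females and 3 males and the Ntg group 3 females and 4 males, and the labels give no Cgas genotype for these mice. Primary microglia were grown from mixed glia of newborn cortex with GM-CSF, from Cgas+/+ pups (labelled WT) and Cgas-/- pups (labelled Cgas KO), and received vehicle, fibrils of tau, or DNA from herring testis (HT-DNA, which activates cGAS). The study's methods give 6 h between stimulation and RNA isolation. There were 3 libraries in each of the 6 culture groups, which the study describes as independent samples. In bulk hippocampus, more microglia and more RNA per microglial cell cannot be told apart.

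Libraries held 25953296 to 35779977 counts in hippocampus and 17037459 to 25174764 in microglia. Levels are given as normalized CPM, which are counts scaled by library size after TMM normalization, a correction for library composition. Mapt, the tau gene, lay between 858 and 1125 CPM in the 6 P301S mice and between 519 and 642 CPM in the 7 Ntg mice, so the labelled genotypes were apart. Cgas lay between 18.8 and 44.3 CPM in the 9 Cgas+/+ cultures and between 3.76 and 7.45 CPM in the 9 Cgas-/- cultures. The cultures carried pan-microglial markers: 12 genes (among them Csf1r, Aif1 and Itgam) summed to 10290 to 11228 CPM in Cgas+/+ and 6918 to 7502 CPM in Cgas-/- cultures. Homeostatic markers summed to 1170 to 1214 CPM and 510 to 605 CPM. Among them Siglech was at 0 to 0.273 CPM, P2ry12 at 4.57 to 19.1, Tmem119 at 8.80 to 19.2 and Olfml3 at 112 to 380. Over all cultures 7 astrocyte markers summed to at most 15.5 CPM, oligodendrocyte markers to 70.5 to 225 CPM and border macrophage markers to 204 to 514 CPM.

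The 10 genes lie on 6 chromosomes of the GRCm38 genome in the GENCODE M21 annotation. Itgax (chromosome 7, 128129547 to 128150657, plus strand), Axl (7, 25757273 to 25788705, minus strand), Tyrobp (7, 30413760 to 30417585, plus strand) and Apoe (7, 19696109 to 19699188, minus strand) share a chromosome. Cst7 is on chromosome 2 (150570415 to 150578944, plus strand), Spp1 on 5 (104435118 to 104441050, plus strand) and Lpl on 8 (68880491 to 68907448, plus strand). Clec7a (129461591 to 129472779, minus strand) and Gpnmb (49036546 to 49070929, plus strand) are on chromosome 6, and Trem2 (48346401 to 48354147, plus strand) is on 17. Spp1 shares 309 exonic bases on its own strand with the annotated transcript Gm42793, so reads there could be assigned to either. No other member overlaps another annotated gene.

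Promoter sequences were available from RefSeq (assembly GRCm38.p6) for 8 of the 10 genes, as 12 entries of 300 bases that run from 250 bases before to 50 bases after an annotated start. Lpl and Tyrobp had none. The entries of Itgax, Cst7 and Trem2 are printed because these genes were higher in every P301S hippocampus than in every Ntg hippocampus, and that of Axl because it was the member that HT-DNA raised most in culture. They come from chr7:128129300-128129599 (plus strand), chr2:150570165-150570464 (plus), chr17:48346151-48346450 (plus) and chr7:25788684-25788983 (minus). Bases are in lower case and every match to one of 4 searched motifs is in capitals.
Itgax: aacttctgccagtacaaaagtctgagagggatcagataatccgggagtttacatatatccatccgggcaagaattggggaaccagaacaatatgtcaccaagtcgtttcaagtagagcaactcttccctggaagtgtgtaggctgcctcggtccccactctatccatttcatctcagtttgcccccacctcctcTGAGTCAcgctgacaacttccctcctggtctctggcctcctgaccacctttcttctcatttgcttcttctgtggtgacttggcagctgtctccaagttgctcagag
Cst7: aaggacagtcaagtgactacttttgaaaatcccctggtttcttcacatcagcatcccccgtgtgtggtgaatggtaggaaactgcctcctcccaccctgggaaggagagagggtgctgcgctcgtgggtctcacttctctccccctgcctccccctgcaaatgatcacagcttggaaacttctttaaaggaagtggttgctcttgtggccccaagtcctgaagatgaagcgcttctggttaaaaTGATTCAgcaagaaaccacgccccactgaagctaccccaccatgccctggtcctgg
Trem2: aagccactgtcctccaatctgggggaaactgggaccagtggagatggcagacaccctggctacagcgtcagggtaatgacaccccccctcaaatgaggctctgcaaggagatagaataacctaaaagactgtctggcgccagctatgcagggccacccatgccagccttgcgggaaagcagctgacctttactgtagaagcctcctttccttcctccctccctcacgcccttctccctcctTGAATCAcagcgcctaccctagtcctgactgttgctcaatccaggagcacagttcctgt
Axl: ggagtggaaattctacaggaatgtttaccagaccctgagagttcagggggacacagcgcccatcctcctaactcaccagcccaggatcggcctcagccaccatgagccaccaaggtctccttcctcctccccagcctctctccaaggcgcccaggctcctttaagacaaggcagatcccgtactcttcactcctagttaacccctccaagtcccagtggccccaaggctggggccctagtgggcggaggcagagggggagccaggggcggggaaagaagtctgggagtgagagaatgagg
The capitals mark the AP-1 motif TGANTCA, in which N is any base. A match began 56 bases before the start in Itgax, 6 before it in Cst7, 9 before it in Trem2 and 8 bases after it in Gpnmb. Thus 4 of the 12 entries held the motif, against 7.81% of 32851 mouse promoters. The middle base is G in Itgax and C in Gpnmb, as in the usual AP-1 site, and T or A in Cst7 and Trem2. Axl held none of the motifs. The PU.1 motif GAGGAAGT was found in 1 of the 2 Spp1 entries and in no other member entry, against 3.2% of all promoters. The interferon-stimulated response element was found in the same Spp1 entry alone, against 3.44% of promoters, and the E-box CACGTG of MITF and TFE factors in no member entry, against 7.15%. Both strands were searched, no matches of different motifs overlapped, and a match of letters is not evidence that a factor binds there.

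In P301S hippocampus, 5 of the 10 genes were called higher than in Ntg hippocampus (log2 fold change beyond 0.5 with an adjusted p under 0.05), and none was lower. Across all 16453 genes tested, 1.36% were called, 1.32% higher and 0.0365% lower. The 5 were Itgax, Cst7, Clec7a, Trem2 and Tyrobp. The median log2 fold change of the 10 genes was 1.91, against 0.0013 for all genes tested. The remaining 5 (Axl, Lpl, Apoe, Spp1 and Gpnmb) did not pass the adjusted threshold, and among them the estimates ran from 0.00 to 2.13.

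Itgax encodes CD11c, the integrin alpha X chain of complement receptor 4. In Ntg mice it was near the limit of counting, with 4 to 18 counts per library and a lowest, median and highest level of 0.124, 0.351 and 0.664 CPM. In P301S mice the levels were 40.8 CPM in mouse 29, 58.6 in mouse 36, 0.771 in mouse 43, 2.97 in mouse 63, 35.2 in mouse 65 and 10.1 in mouse 77. Every P301S mouse therefore exceeded every Ntg mouse, but mouse 43 only narrowly. The log2 fold change was 6.12 (SE 0.87, 95% interval 4.26 to 7.98, adjusted p 0.0102). Such complete separation, with P301S above, was seen for 0.438% of all genes tested.

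Cst7 encodes cystatin F, an inhibitor of lysosomal cysteine proteases. Its Ntg levels ran from 0.0933 through a median of 0.253 to 0.535 CPM. The P301S mice had 39.0 CPM (mouse 29), 31.1 (mouse 36), 0.631 (mouse 43), 2.31 (mouse 63), 26.2 (mouse 65) and 8.08 (mouse 77). Again all 6 lay above the 7 Ntg mice, with mouse 43 at 18 counts against 3 to 18 counts in Ntg libraries. This gave a log2 fold change of 5.90 (SE 0.85, 95% interval 4.09 to 7.71, adjusted p 0.0102).

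Clec7a encodes Dectin-1, a pattern-recognition receptor that signals through SYK. Its lowest, median and highest Ntg levels were 0.124, 0.446 and 0.982 CPM. P301S levels were 33.9 CPM in mouse 29, 45.4 in mouse 36, 0.280 in mouse 43, 3.20 in mouse 63, 32.6 in mouse 65 and 11.4 in mouse 77. Mouse 43 fell inside the Ntg range and the other 5 lay above it. Its log2 fold change was 5.62 (SE 0.88, 95% interval 3.74 to 7.51, adjusted p 0.0156).

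The receptor pair Trem2 and Tyrobp was already well detected in Ntg hippocampus and rose by less. Trem2 ran from 13.2 through 14.8 to 15.9 CPM in Ntg mice. In P301S mice it was 75.3 CPM (mouse 29), 69.0 (mouse 36), 16.9 (mouse 43), 17.97 (mouse 63), 75.8 (mouse 65) and 30.7 (mouse 77). The groups did not overlap, and the log2 fold change was 1.70 (SE 0.33, 95% interval 0.99 to 2.41, adjusted p 0.0303). Tyrobp (also called DAP12) ran from 11.4 through 13.6 to 15.1 CPM in Ntg mice. In P301S mice it was 78.7, 88.5, 15.95, 17.8, 87.5 and 30.4 CPM in mice 29, 36, 43, 63, 65 and 77. These groups did not overlap either, with a log2 fold change of 2.0 (SE 0.38, 95% interval 1.19 to 2.80, adjusted p 0.0303). With 1 mouse left out, the calls of Trem2 and Tyrobp held in 4 of 13 fits each, those without P301S mouse 43, 63 or 77 or Ntg mouse 55. In the other 9 fits the adjusted p rose to at most 0.0859, while the log2 fold change stayed between 1.51 and 1.88 for Trem2 and between 1.79 and 2.18 for Tyrobp over all 13.

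**Figure D1:**
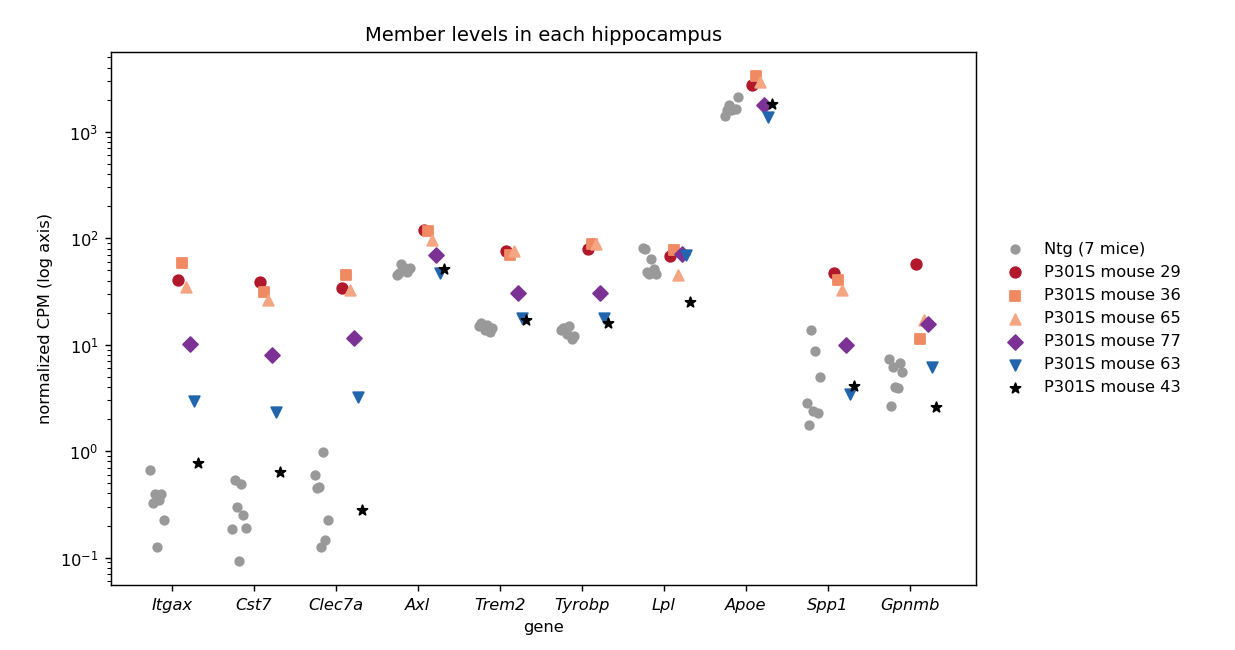
Normalized CPM (log axis) of the 10 genes in each hippocampus, with the 7 Ntg mice as grey circles and each of the 6 P301S mice as its own symbol. P301S mice 29, 36 and 65 lie highest for Itgax, Cst7, Clec7a, Trem2 and Tyrobp, and mouse 43 lies at or just above the Ntg mice, at 0.771 CPM for Itgax.

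Axl is a receptor tyrosine kinase of the TAM family that recognises phosphatidylserine on dying cells through Gas6. It ran from 45.4 through 51.5 to 57.1 CPM in Ntg mice. The P301S levels were 119 CPM in mouse 29, 118 in mouse 36, 51.9 in mouse 43, 47.0 in mouse 63, 96.6 in mouse 65 and 70.3 in mouse 77. Mice 43 and 63 lay inside the Ntg range, and the log2 fold change was 0.73 (SE 0.20, 95% interval 0.31 to 1.15, adjusted p 0.0758).

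Spp1 encodes osteopontin, a secreted integrin and CD44 ligand. It was uneven among Ntg mice, with a lowest level of 1.76, a median of 2.80 and a highest of 13.8 CPM. Ntg mice 55 and 62 had the highest levels (13.8 and 8.73 CPM) and also the highest summed level of 7 border macrophage markers (12.4 and 7.7 CPM, against 2.1 to 3.9 in the other 5 Ntg mice); the part of such cells in the Spp1 signal was not tested. P301S levels were 47.4, 40.2, 4.10, 3.43, 32.5 and 10.005 CPM in mice 29, 36, 43, 63, 65 and 77, so that 3 of 6 exceeded every Ntg mouse. The Spp1 difference was 2.13 on the log2 scale (SE 0.66, 95% interval 0.71 to 3.54, adjusted p 0.116).

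Gpnmb encodes a lysosome-associated glycoprotein of phagocytic cells. It ran from 2.68 through 5.57 to 7.41 CPM in Ntg mice. P301S levels were 57.2, 11.2, 2.59, 6.23, 17.1 and 15.5 CPM in mice 29, 36, 43, 63, 65 and 77. Mouse 29 stood far above the rest, and without it the log2 fold change dropped from 1.82 (SE 0.53, 95% interval 0.68 to 2.95, adjusted p 0.0951) to 1.02.

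The lipid genes had the smallest differences. Apoe, which encodes the main lipid carrier of the brain and is made in quantity by astrocytes, ran from 1395 through 1633 to 2105 CPM in Ntg mice. In P301S mice it was 2738, 3332, 1807, 1388, 2933 and 1803 CPM in mice 29, 36, 43, 63, 65 and 77, so that 3 mice exceeded the Ntg range and 3 lay within or below it. For Apoe the log2 fold change was 0.47 (SE 0.18, 95% interval 0.09 to 0.86, adjusted p 0.205). Lpl encodes lipoprotein lipase, which releases fatty acids from lipoproteins and is also made by neurons. Its lowest, median and highest levels were 45.8, 51.4 and 81.5 CPM in Ntg mice and 25.3, 68.9 and 77.8 CPM in P301S mice. No P301S mouse exceeded the highest Ntg mouse, and the log2 fold change was 0.00 (SE 0.23, 95% interval -0.50 to 0.50, adjusted p 0.999).

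The P301S mice differed from each other more than the Ntg mice did. Mice 29, 36 and 65 exceeded every Ntg mouse for 9 of the 10 genes, that is, all but Lpl. Mouse 77 did so for 7, mouse 63 for 5 and mouse 43 for 4. The share of all genes above every Ntg mouse was not computed for each P301S mouse. The 0.438% for all P301S mice together is not a baseline for these counts. For Itgax and Clec7a the order from high to low was mice 36, 29, 65, 77, 63 and 43, and for Cst7 it differed only in placing mouse 29 before 36. Mice 29, 63 and 77 were male and 36, 43 and 65 female, so each sex held high and low mice. No interaction of sex with genotype was called by edgeR for any member or any of the 16453 genes (0% called), although 3897 genes and 1 member (Lpl, with a P301S log2 fold change 0.98 higher in males, unadjusted p 0.0358) had an unadjusted p under 0.05. DESeq2 called 1092 genes and no member. The count of 0 over all genes also rested on single mice, with 1648 called by edgeR without P301S mouse 29, 44 without P301S mouse 36 and 3 without Ntg mouse 55, and it was 58 of 30055 genes without the filter on low counts. None of these fits called a member.

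Summed levels of the 12 pan-microglial markers were likewise highest in mice 29, 36 and 65 and lowest in mouse 43 among P301S mice. They were 409.5 to 511.9 CPM in Ntg mice, and 1617, 1506, 438.7, 515.4, 1608 and 845.5 CPM in P301S mice 29, 36, 43, 63, 65 and 77. The log2 fold change was positive for all 12, and 5 were called higher (median 1.29), with the largest for C1qa (1.94), Cd68 (1.90) and C1qb (1.84). The 10 homeostatic markers moved less: none was called and the median was 0.18. The markers of other cells that could enter such tissue were also compared. Of 7 astrocyte markers, 1 was called higher (Gfap, 2.22), and their sum was 7630 to 8608 CPM in mice 29, 36 and 65 against 4606 to 5434 CPM in Ntg mice. None was called among the 4 of 7 border macrophage markers tested, the 2 of 6 T cell markers, the 2 of 6 dendritic cell markers, the 6 oligodendrocyte markers, the 7 vascular and fibroblast markers, the 5 choroid plexus markers or the 6 neuronal markers. None of the monocyte and neutrophil markers passed the filter in hippocampus, where they summed to at most 1.92 CPM. The 6 T cell markers summed to 1.07 to 1.62 CPM in Ntg mice, and to 7.93, 3.02, 1.86, 1.09, 7.09 and 3.04 CPM in P301S mice 29, 36, 43, 63, 65 and 77, so that all P301S mice but 63 lay above the Ntg mice, and the part of such cells in the member levels was not tested. The 6 dendritic cell markers summed to 14.2 to 18.7 CPM in Ntg mice and 12.8 to 18.6 CPM in P301S mice other than mouse 63, which had 40.9 CPM. Choroid plexus markers summed to 97.2 to 5495 CPM across the 13 hippocampi, which overlapped between genotypes.

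With the mean of the pan-microglial markers as a covariate, no member passed the threshold, although 4 had an unadjusted p under 0.05 by edgeR. The number of all genes with such a p was not computed in that fit, so the 4 have no baseline. In the fit without the covariate, 9 members and 2612 of 16453 genes had one. Under that covariate the log2 fold changes were 2.22 for Itgax (adjusted p 0.108), 2.15 for Cst7 (0.0735), 1.87 for Clec7a (0.652), 0.24 for Tyrobp and 0.18 for Trem2 (0.9995 each). The 10 homeostatic markers were used as a second covariate, a choice made after seeing the data, in which 5 of those 12 markers rose. The 5 genes then stayed called, with log2 fold changes of 4.77 for Itgax, 4.61 for Cst7, 4.22 for Clec7a, 1.39 for Tyrobp and 1.19 for Trem2 and adjusted p from 0.00636 to 0.0332. Over all 16453 genes, 82 were called in that fit, against 8 with the pan-microglial covariate. Homeostatic genes are known to recede in this state, so their mean is not a fixed measure of microglial number. They also moved little between genotypes here and share Cx3cr1 with the pan-microglial list. Calls that outlast this covariate therefore do not separate cell number from RNA per cell. The number of members called also moved with single mice. It was 8 without mouse 43 or without mouse 63, when Axl, Spp1 and Gpnmb joined, and 2 without Ntg mouse 35 or 61, when Itgax and Cst7 alone passed. The calls over all genes moved with them, from 223 with every mouse to 652 without mouse 43, 562 without mouse 63 and 14 without Ntg mouse 35 or 61. Clec7a missed the threshold in those last 2 fits (adjusted p 0.0517 and 0.0537). DESeq2 called 8 members and 583 genes.

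The partners of these genes were examined through fixed lists. Of 23 tested genes in a list of 25 other disease-associated microglia genes, 8 were called higher and none lower (median 0.78), with the largest rises for Lyz2 (3.51, lysozyme), Cd52 (3.36, a leukocyte surface glycoprotein) and Ccl6 (2.92, a chemokine). Of 12 tested genes of TREM2 and TYROBP signalling, 2 rose: Lat2 (1.92), an adaptor, and Ptpn6 (1.55), the phosphatase SHP-1 (median of the list 0.57). The integrin partners of CD11c and receptors of osteopontin gave 2 rises and 1 fall among 10 tested (median 0.49). Itgb2, the beta chain that pairs with CD11c, rose by 1.80 and Itgb5 by 0.81, whereas Itga4 fell by 0.76 on the log2 scale. Of 16 tested lipid genes around Apoe and Lpl, 1 rose: Plin2 (0.68), a lipid droplet coat protein (median 0.14). None was called among the 4 TAM receptors and ligands (median 0.11), the 4 tested proteases that cystatin F inhibits (0.74) or the 3 tested MITF and TFE factors (0.13).

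The genes most like the mean of the 10 members across the 13 hippocampi were Cybb (Pearson r 0.992), Myo1f (0.991), Csf2rb (0.991), Cxcl16 (0.988) and Cd68 (0.988). This is a description over 13 libraries that share the difference between genotypes and between mice. Cybb encodes the catalytic chain of the phagocyte NADPH oxidase and Csf2rb the shared beta chain of the GM-CSF receptor.

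In culture the same genes stood at other levels. Because hippocampal and microglial tables were normalized separately, member counts were set against the counts of the 12 pan-microglial markers in the same library, as counts per 1000 marker counts, with no test. Library preparation may differ between hippocampus and culture, and its effect on these ratios was not tested. Itgax was at 0.264 to 1.46 in Ntg hippocampi, 1.76 to 38.9 in P301S hippocampi and 40.8 to 54.0 in the 18 cultures. Clec7a was at 0.264 to 2.14, 0.639 to 30.2 and 108 to 229. Thus cultures without any stimulus already carried more of both, per marker count, than any hippocampus.

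Spp1 and Gpnmb were also far higher in culture. Spp1 was at 3.43 to 29.5 per 1000 marker counts in Ntg mice, 6.65 to 29.3 in P301S mice and 2573 to 6480 in cultures, and Gpnmb at 5.23 to 16.3, 5.91 to 35.4 and 1355 to 2034. Spp1 alone took 2.73% to 4.68% of all counts in a culture library. Cst7 was not far higher in culture. In Cgas+/+ cultures it was at 2.18 to 3.22, below P301S mice 29, 36, 63, 65 and 77 (4.48 to 24.1). These cultures lay above P301S mouse 43 (1.44) and every Ntg mouse (0.198 to 1.07). In Cgas-/- cultures Cst7 was at 10.1 to 12.4, within the P301S range. The markers that divide it summed to less there (6918 to 7502 CPM, against 10290 to 11228 CPM in Cgas+/+ cultures), which raises every Cgas-/- ratio. Within hippocampus, the P301S and Ntg mice stayed apart on this scale for Itgax, Cst7 and Tyrobp (34.5 to 58.8 against 26.7 to 32.8), and overlapped for Trem2 (34.9 to 47.1 against 29.04 to 34.9). The margin was narrow, with Itgax at 1.76 in P301S mouse 43 against at most 1.46 in Ntg mice. The share of all genes apart on this scale was not computed. Apoe, Axl and Lpl are also made by other brain cells, so their hippocampal ratio is not a microglial level.

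**Figure D2:**
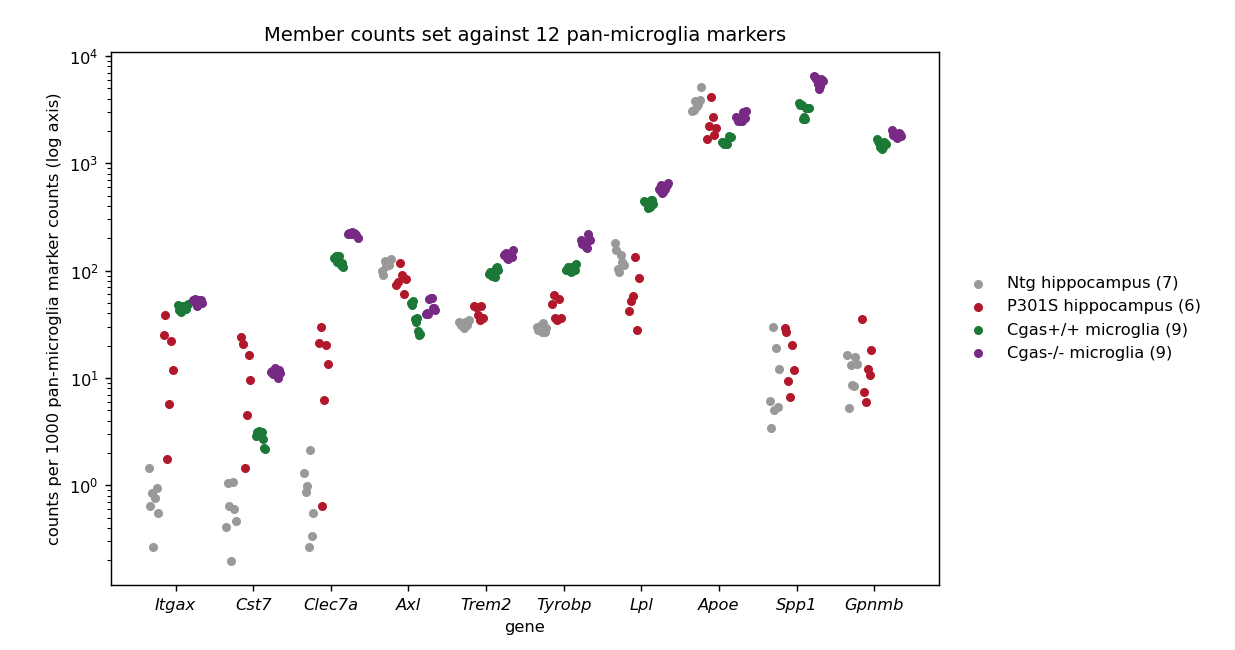
Counts of each gene per 1000 counts of 12 pan-microglial markers (log axis) in 7 Ntg and 6 P301S hippocampi and in 9 Cgas+/+ and 9 Cgas-/- culture libraries, 1 point per library. Spp1 and Gpnmb are above 1000 in every culture and at most 35.4 in every hippocampus, while Cst7 in Cgas+/+ cultures lies between the Ntg mice and most P301S mice.

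The first culture comparisons asked what tau fibrils and HT-DNA did to these genes in Cgas+/+ microglia. Tau and HT-DNA were each set against the same 3 vehicle libraries, so their changes are not independent. With tau, none of the 10 genes was called (here a log2 fold change beyond 1 with an adjusted p under 0.05), where 3.41% of 13675 genes were. By edgeR 8 of the 10 had an unadjusted p under 0.05, as did 5008 of all genes, and DESeq2 likewise called none. At any fold change 3 were higher (15.8% of all genes) and 4 lower (12.2%). With HT-DNA 1 was called (Axl, higher), where 8.08% of all genes were called and 5.29% called higher, and at any fold change 5 were higher (22.8% of all genes) and 1 lower (24.7%). The median log2 fold change of the 10 genes was -0.05 with tau and 0.12 with HT-DNA, against -0.01 and -0.03 for all genes.

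Axl had the largest estimate in both, although with tau it was close to that of Cst7 and fell below it without vehicle library 1 (0.51 against 0.54). Its vehicle libraries were at 282, 260 and 267 CPM, its tau libraries at 384, 356 and 388 CPM and its HT-DNA libraries at 543, 543 and 574 CPM. The 3 groups did not overlap, and the share of all genes separated in this way was not computed in culture. The log2 fold change was 0.48 with tau (SE 0.04, adjusted p 7.22e-10) and 1.04 with HT-DNA (SE 0.04, adjusted p 3.4e-17).

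Cst7 and Clec7a rose in a smaller measure. Cst7 was at 27.9, 23.1 and 22.8 CPM with vehicle, 35.1, 30.8 and 34.2 with tau and 31.1, 34.9 and 33.7 with HT-DNA. Both stimuli left the vehicle range, with log2 fold changes of 0.43 (SE 0.08) for each and adjusted p of 0.000104 and 6.53e-05. Clec7a was at 1154, 1218 and 1134 CPM with vehicle, 1305, 1331 and 1478 with tau and 1425, 1487 and 1508 with HT-DNA. Its log2 fold changes were 0.23 (SE 0.04, adjusted p 0.00018) and 0.33 (SE 0.04, adjusted p 4.27e-07).

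Spp1 went in opposite directions with the stimuli. It was at 33879, 33462 and 34107 CPM with vehicle, 28056, 28962 and 28196 with tau and 39804, 39266 and 38889 with HT-DNA, without overlap. The log2 fold change was -0.25 with tau (SE 0.03, adjusted p 4.23e-08) and 0.22 with HT-DNA (SE 0.03, adjusted p 2.8e-07). With tau, Apoe fell by 0.15, Trem2 by 0.14 and Lpl by 0.11 on the log2 scale (adjusted p 0.000255, 0.0216 and 0.032). Of the 6 fits that left out 1 library, Apoe passed in all 6, Trem2 in 2 (without vehicle library 3 or tau library 2, adjusted p up to 0.126 in the others) and Lpl in 1 (without vehicle library 3, up to 0.157). With HT-DNA, Apoe fell by 0.08 (adjusted p 0.021, but up to 0.0897 without vehicle library 1 or HT-DNA library 1 or 3) and Gpnmb rose by 0.16 (adjusted p 0.000346). Itgax, which had risen most in P301S hippocampus, changed by 0.04 with tau (95% interval -0.07 to 0.16) and 0.04 with HT-DNA (-0.08 to 0.15), and Tyrobp by -0.02 (-0.13 to 0.10) and 0.05 (-0.06 to 0.16). These are responses at 6 h, whereas the hippocampi came from mice of 8 to 9 months, so culture and brain were not matched in time.

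**Figure D3:**
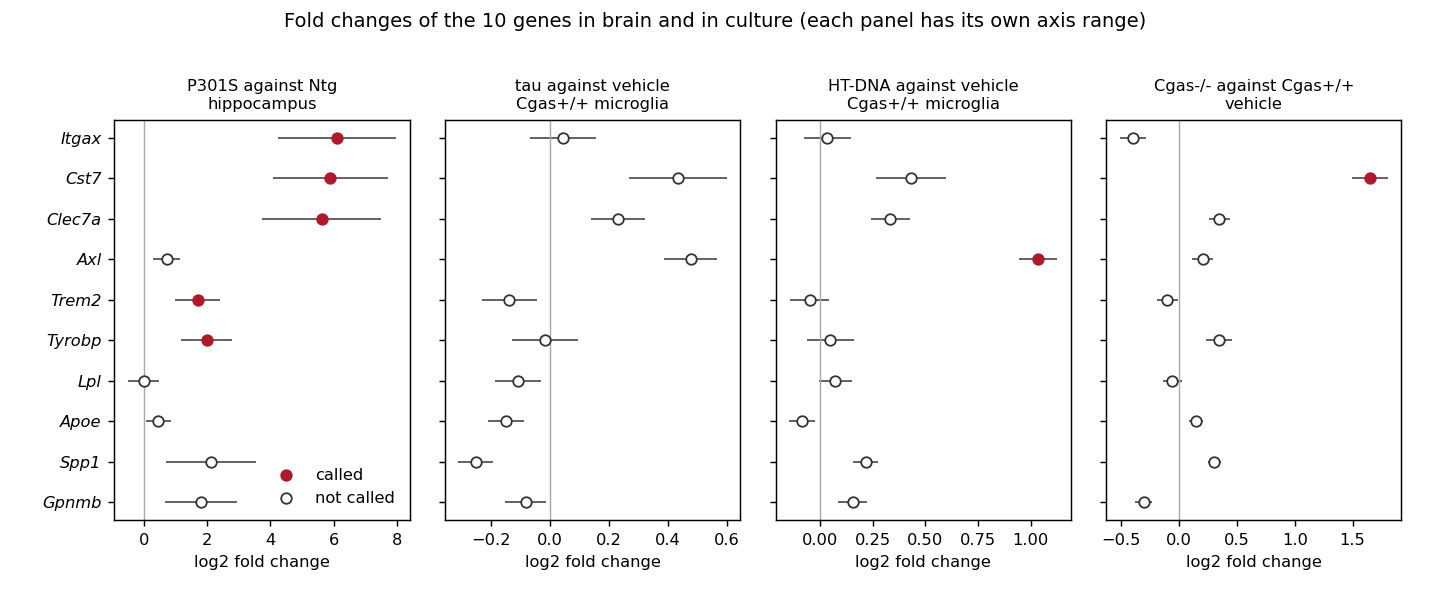
Log2 fold changes of the 10 genes with 95% intervals in 4 comparisons, filled where a gene was called and open where it was not. Each panel has its own axis range: Itgax reaches 6.12 in P301S hippocampus, and the largest change with a stimulus in Cgas+/+ microglia is 1.04 for Axl with HT-DNA.

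In Cgas-/- microglia no member was called with either stimulus (2.73% of all genes were with tau and 0.0219% with HT-DNA). By edgeR 7 had an unadjusted p under 0.05 with tau and 5 with HT-DNA, as did 3647 and 1688 of the 13675 genes, and DESeq2 called none. Axl rose with tau without Cgas as well, from 314, 320 and 300.6 CPM with vehicle to 411, 418 and 418 CPM, a log2 fold change of 0.42 (SE 0.04, adjusted p 1.46e-08). Clec7a rose by 0.18 (adjusted p 0.00505), and Apoe and Spp1 fell by 0.12 and 0.10 (adjusted p 0.00333 and 0.0139). Clec7a missed 0.05 without vehicle library 3 (adjusted p 0.0582), and Spp1 without vehicle library 1 or 2 or tau library 2 (up to 0.133). These were the 2 rises and 2 falls at any fold change, where 11.2% of all genes rose and 5.48% fell. With HT-DNA, Axl was at 271, 291 and 276 CPM, below its vehicle libraries, with a log2 fold change of -0.16 (SE 0.04, adjusted p 0.0763). Apoe fell by 0.14 (adjusted p 0.0161), the 1 member to pass at any fold change, where 1.04% of all genes rose and 0.278% fell. It did not pass without vehicle library 1 or 3 or HT-DNA library 2 (adjusted p up to 0.127).

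The interaction of treatment with genotype tests whether the response differed between Cgas-/- and Cgas+/+ microglia. For tau it was called for 1 member, where 6.91% of all genes were: Spp1, which fell by less without Cgas (difference 0.15, SE 0.04, adjusted p 0.0184). That call was lost in 3 of the 12 fits that left out 1 library, those without Cgas-/- vehicle library 3, Cgas+/+ tau library 1 or Cgas+/+ tau library 3 (adjusted p up to 0.132). The response of Axl to tau did not differ by more than its error (difference -0.06, 95% interval -0.19 to 0.06, adjusted p 0.64).

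For HT-DNA the interaction was called lower for 5 members and higher for none, where 16.6% and 17.4% of all genes were. The difference was -1.19 for Axl (SE 0.06, adjusted p 4.39e-14), -0.39 for Cst7 (SE 0.11, adjusted p 0.00464) and -0.27 for Clec7a (SE 0.06, adjusted p 0.00153). It was -0.16 for Lpl (SE 0.05, adjusted p 0.0194) and -0.13 for Spp1 (SE 0.04, adjusted p 0.0126). Of 12 fits that left out 1 library, the Lpl call was lost in 3, those without Cgas+/+ vehicle library 3, Cgas-/- vehicle library 3 or Cgas-/- HT-DNA library 2 (adjusted p up to 0.0707), and the Spp1 call in 1, without Cgas-/- HT-DNA library 3 (0.0667). For Itgax it was 0.01 (95% interval -0.14 to 0.17) and for Trem2 0.05 (-0.08 to 0.18).

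**Figure D4:**
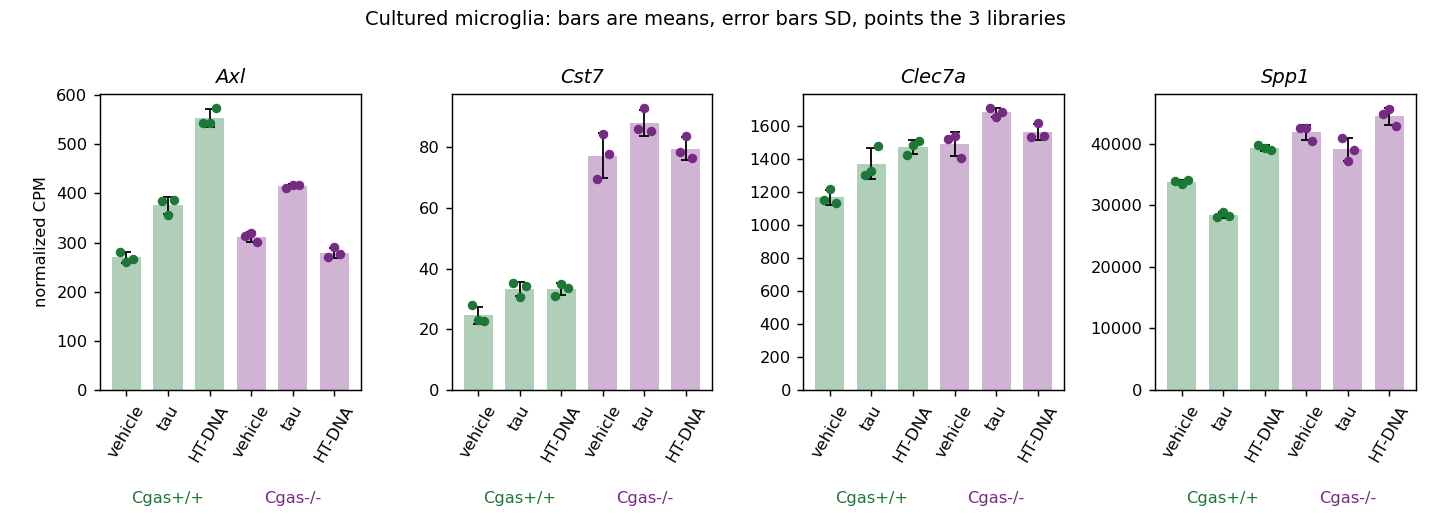
Normalized CPM of Axl, Cst7, Clec7a and Spp1 in the 6 culture groups, with bars for the mean, error bars for the SD and points for the 3 libraries of each group. Axl is highest in Cgas+/+ cells with HT-DNA, at 543 to 574 CPM, and Cst7 is higher in all 9 Cgas-/- libraries (69.7 to 93.1 CPM) than in all 9 Cgas+/+ libraries (22.8 to 35.1 CPM).

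Cst7 was the member that differed most between genotypes of cultured microglia. With vehicle, the Cgas-/- libraries were at 69.7, 84.5 and 77.7 CPM, against 27.9, 23.1 and 22.8 CPM in Cgas+/+ libraries. The log2 fold change was 1.65 (SE 0.08, adjusted p 1.42e-16), and Cst7 was the only member called, where 9.98% of all genes were called, 2.63% higher and 7.35% lower. It was also called with tau (1.40, SE 0.07, adjusted p 2.38e-15) and with HT-DNA (1.26, SE 0.07, adjusted p 9.25e-15), where 2.98% and 6.31% of all genes were called higher. Cst7 thus ordered as Cgas+/+ vehicle, then Cgas+/+ with HT-DNA and with tau (means 33.2 and 33.4 CPM, which overlapped), then the 3 Cgas-/- groups (means 77.3, 79.6 and 88.2 CPM, where tau alone lay above vehicle).

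At any fold change, 6 members were higher and 2 lower in Cgas-/- microglia with vehicle, where 24.7% and 27.3% of all genes were. Clec7a and Tyrobp were higher by 0.35 each, Spp1 by 0.31, Axl by 0.21 and Apoe by 0.15. Itgax was lower by -0.40, with 354, 381 and 345 CPM against 456, 452 and 515 CPM, and Gpnmb by -0.30. Trem2 (-0.10) and Lpl (-0.05) did not pass. The pan-microglial markers were lower in the same cells, with a negative log2 fold change for all 12 (median -0.66, 1 called, Cx3cr1 at -1.68), and fibroblast and vascular markers summed to 0.521 to 1.36 CPM against 3.46 to 5.02 CPM. Border macrophage markers summed to 211 to 214 CPM against 413 to 432 CPM. The part of cell makeup in the Cst7 difference was not tested. The labels do not say whether the genotypes shared litters or culture preparations, so genotype and preparation cannot be told apart in these comparisons.

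With HT-DNA, Axl was lower in Cgas-/- than in Cgas+/+ microglia by a log2 fold change of -0.99 (SE 0.04, adjusted p 1.59e-17), just inside the minimum of 1, which 3 of the 6 fits that left out 1 library crossed. Over the 6 groups Axl ordered as Cgas+/+ vehicle (mean 270 CPM), Cgas-/- HT-DNA (279), Cgas-/- vehicle (312), Cgas+/+ tau (376), Cgas-/- tau (415) and Cgas+/+ HT-DNA (553). The first 2 of that order overlapped, and each later group lay above the libraries of the one before it.

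The other lists were read against the shares of all genes called. Of the 25 other disease-associated genes, all tested, 1 was called with tau and with HT-DNA in Cgas+/+ cells, Ch25h (1.08 and 1.56), which makes 25-hydroxycholesterol, where 3.41% and 8.08% of all genes were called. In Cgas-/- cells with vehicle, Ccl6 was higher (3.19) and Lgals3bp lower (-2.23), where 9.98% of all genes were called. Among partners, HT-DNA raised Plin2 (1.14), Itga4 (1.22) and Ctsc (1.005, cathepsin C, a protease that cystatin F controls) and lowered Tyro3 (-1.07), each 1 of its list in Cgas+/+ cells, while none of the 13 genes of TREM2 and TYROBP signalling was called. The genes most like the members over the 18 microglial libraries were Plin2 (Pearson r 0.925), Stx7 (0.901), Cwc27 (0.884), Elmo2 (0.883) and Metrnl (0.882), which is a description over libraries that share genotype and treatment.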

How the data were processed

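Raw read counts per gene, deposited by the authors without normalization, were used for 13 hippocampi and 18 microglial libraries; samples were grouped by the labels, and columns were assigned to samples through their names. The submitters' processing notes name GRCm38, edgeR and limma. The aligner and counting tool are not given in the sources used here. The labels name a 3' mRNA kit for the hippocampi, whereas the study's methods describe other extraction and sequencing for hippocampus. Levels were not compared between genes, except as ratios of member counts to marker counts.

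Tests used edgeR 4.0.16 in R 4.3.3 (TMM scaling, filterByExpr with a minimum count of 10, quasi-likelihood F test), with Benjamini-Hochberg adjustment over the 16453 hippocampal and 13675 microglial genes tested, one model for all 6 culture groups, and checks on simulated data. A gene was called at an adjusted p under 0.05 and an absolute log2 fold change over 0.5 (hippocampus) or 1 (microglia), with no minimum for interactions. The members and lists were chosen with earlier results of these data known. List genes are named for the 3 largest rises and falls among called genes, and the 5 most alike genes by Pearson r on log2 CPM (pseudocount 0.5). Counts of replicates differed beyond sampling noise in every pair (chi-square per degree of freedom 2.32 or more). In culture, Cgas-/- HT-DNA library 1 stood furthest from its replicates (22.4 and 28.0). Libraries 2 and 3 of that group gave 4.16, and pairs in the other culture groups at most 10.7. P-values measure only the spread between these samples. Alternatives were DESeq2 1.42.0, RLE scaling, no filter, no minimum fold, sex or marker covariates, a replicate block, only the libraries compared, and each library left out.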

Additional observations from a re-analysis of the deposited data

Results flagged for a closer look

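Gpnmb in P301S mouse 29 stood apart from the other 5 P301S mice: the gap to the next mouse was 0.735 of the whole range, above Dixon's 95% critical value for 6 samples. Of the 20 combinations of a gene and a hippocampal group examined, this was the 1 past its critical value, and chance gives about 1 in 20.

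In microglia, 6 responses differed between Cgas-/- and Cgas+/+ cells by the interaction test of edgeR, with a negative difference meaning a lower response without Cgas. With HT-DNA the differences in log2 fold change were -1.19 for Axl, -0.39 for Cst7, -0.27 for Clec7a, -0.16 for Lpl and -0.13 for Spp1. With tau the difference was 0.15 for Spp1. For each contrast 10 members were tested, with adjustment over all 13675 genes.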

How the results depend on the processing

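The number of members called in P301S against Ntg hippocampus was 5, and became 8 with DESeq2, 0 with the pan-microglial covariate and 2 to 8 when a mouse was left out. The cause was not tested. It was 2 without Ntg mouse 35 or 61, 3 without Ntg mouse 46, 62, 68 or 71 or P301S mouse 29, 36 or 65, 5 without Ntg mouse 55 or P301S mouse 77, and 8 without P301S mouse 43 or 63. Itgax and Cst7 were called in all 13 such fits. Over all genes, 223 were called by edgeR, 583 by DESeq2, 126 with sex as a covariate, 8 with the pan-microglial covariate and 14 to 652 when a mouse was left out, so the share of 1.36% moved too.

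In microglia, dropping the minimum fold change gave 7 members for tau and 6 for HT-DNA in Cgas+/+ cells, 4 and 1 in Cgas-/- cells, and 8 for each of the 3 comparisons of genotypes. Over all 13675 genes it gave 3829 and 6488 in Cgas+/+ cells, 2282 and 180 in Cgas-/- cells, and 7110, 7022 and 8646 between genotypes with vehicle, tau and HT-DNA. Cgas-/- against Cgas+/+ with HT-DNA gave 2 members (Cst7 and Axl) with DESeq2, RLE scaling or only the libraries compared, and 1 to 2 with a library left out, where 2 came without Cgas-/- library 2 or Cgas+/+ library 1 or 2. Over all genes these fits gave 2454, 2477, 2251 and 2501 to 2569. The interaction with HT-DNA gave 8 members with only the libraries compared and 4 to 7 with a library left out, and that with tau 0 to 2. Over all genes, the interaction with HT-DNA gave 4605 of 13368 with only the libraries compared and 4242 to 4513 with a library left out. With a library left out, the interaction with tau gave 589 to 1122 genes. Same-numbered libraries of different groups were no more alike than others (correlations -0.109 to 0.121, against -0.107 to 0.122). Shared preparations under other numbers were not tested. The replicate block gave 1 member for Cgas-/- against Cgas+/+ in each treatment and 1 for HT-DNA in Cgas+/+ cells. It gave 5 and 1 for the interactions with HT-DNA and tau, and 0 for the other contrasts, as without it. Over all genes the block gave 1346, 1410 and 2471 between genotypes with vehicle, tau and HT-DNA, and 1103 for HT-DNA in Cgas+/+ cells. For the interactions with HT-DNA and tau it gave 4613 and 921 genes.

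Signs turned only for changes below the threshold. In P301S hippocampus, the pan-microglial covariate gave -0.10 for Apoe, -0.043 for Axl, -0.21 for Gpnmb, -0.33 for Lpl and -0.54 for Spp1, and Lpl was also at -0.00021 with DESeq2, -0.0059 without a filter and -0.085 with the homeostatic covariate. In the interaction with HT-DNA, Itgax was at -0.023 with DESeq2, -0.023 with RLE scaling and -0.046 with only the libraries compared, where Trem2 was at -0.015. In the interaction with tau, Lpl was at -0.0058 with DESeq2 and with RLE scaling, and Trem2 in Cgas-/- against Cgas+/+ with tau at 0.0064 without a filter. With a library left out, the ranges that crossed 0 were as follows. In hippocampus Lpl ran from -0.089 to 0.16, and in the interaction of sex with genotype Cst7 ran from -1.56 to 0.62 and Itgax from -1.53 to 0.73. With HT-DNA, Cst7 ran from -0.027 to 0.11 and Trem2 from -0.035 to 0.052 in Cgas-/- cells, and Itgax from -0.012 to 0.097 and Tyrobp from -0.0045 to 0.11 in Cgas+/+ cells. With tau, Trem2 ran from -0.084 to 0.0027 in Cgas-/- cells, Tyrobp from -0.069 to 0.046 in Cgas+/+ cells and Trem2 from -0.036 to 0.0198 between genotypes. In the interaction with tau, Apoe ran from -0.019 to 0.059, Clec7a from -0.12 to 0.0040, Itgax from -0.043 to 0.071 and Lpl from -0.031 to 0.038, and in that with HT-DNA Itgax ran from -0.046 to 0.062. Counts of 4 to 18 for Itgax in Ntg hippocampi limit the precision of its fold.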
